A study of Homo sapiens with 4 samples.

Results

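The 10 genes described here are immediate early genes, all but *IER2* of the AP-1 and EGR families: *EGR1*, *EGR2*, *EGR3*, *FOS*, *FOSB*, *JUN*, *JUNB*, *JUND*, *ATF3* and *IER2*. They were chosen by symbol, all 10 were found among the 57820 genes of the deposited table, and all 10 passed the filter on low counts that left 20528 genes for testing. The cells were SK-N-SH, a human neuroblastoma line in which expression of the long noncoding RNA *RP5-998N21.4* was forced by a lentivirus. The OE group was SK-N-SH transduced with a lentivirus in which the EF1a promoter drives the *RP5-998N21.4* cDNA. The vector control group, titled WT in the labels, was the same line transduced with the empty lentivirus, so all 4 libraries came from transduced cells in serum-containing DMEM. There were 2 libraries for each group, and nothing in the labels says that they came from separate cultures, so p-values measure the spread between these libraries.

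Immediate early genes are transcribed within minutes of a stimulus such as serum, a growth factor or neuronal firing, because the factors that switch them on are already present in the resting cell. MAP kinases phosphorylate ternary complex factors bound with SRF at the CArG box, and kinases including CaMK and PKA phosphorylate CREB at the cAMP response element (CRE). FOS and JUN proteins pair through leucine zippers to form AP-1, JUN proteins can also pair with each other, and EGR proteins are zinc finger factors that bind GC-rich sites and are held in check by the NAB corepressors. In neurons several of these genes serve as markers of activity.

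The overexpressed RNA and marker genes of the cell line were examined first. *RP5-998N21.4* (ENSG00000234571.1) was counted 32 and 33 times under the empty vector and 2407 and 2808 times in OE. Library totals ranged from 23785164 to 28307591 counts. Of 8 adrenergic neuroblastoma markers 7 averaged above 1 CPM (counts scaled to the library total after TMM normalization), with *TH* at 0 in every library, and all 8 mesenchymal markers did, with *VIM* highest at 582 CPM. None of the 7 markers of other cell types in the table averaged above 1 CPM, and their sums were 1.32 to 3.11 CPM. The highest of them, *CD14*, averaged 0.978 CPM, just under that cutoff. The summed adrenergic markers were at 540 and 610 CPM in the vector control and 909 and 869 CPM in OE, apart between the groups like several genes below, and their part in those differences was not tested. The mesenchymal sums, 2470 and 2280 against 2760 and 1800 CPM, overlapped. In bulk RNA, fewer cells of a type and less RNA per cell cannot be told apart.

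The control sequences of these genes are well known, and the windows directly upstream of their starts show what they share by sequence. The windows of *EGR1*, *EGR2*, *FOSB* and *JUNB*, which stood farthest from the vector control among the genes with separated groups and an unadjusted p under 0.05, and of *JUND*, which holds the only full CRE, are printed 5′ to 3′ on the strand of the gene, each as the 210 bases before the first base of the Ensembl canonical transcript in hg19 (GRCh37). They lie at chr5:137800958-137801167 on the plus strand (*EGR1*), chr10:64576127-64576336 on the minus strand (*EGR2*), chr19:45971044-45971253 and chr19:12902090-12902299 on the plus strand (*FOSB* and *JUNB*) and chr19:18392433-18392642 on the minus strand (*JUND*). Capitals mark CArG boxes and the CRE core TGACG or its reverse complement CGTCA, which also lies inside the full CRE. Of the 250 bases searched for each gene, 91 for *ATF3*, 7 for *EGR2*, 2 for *FOS* and 1 each for *FOSB* and *JUN* lie in an exon of another transcript of the same gene.
EGR1: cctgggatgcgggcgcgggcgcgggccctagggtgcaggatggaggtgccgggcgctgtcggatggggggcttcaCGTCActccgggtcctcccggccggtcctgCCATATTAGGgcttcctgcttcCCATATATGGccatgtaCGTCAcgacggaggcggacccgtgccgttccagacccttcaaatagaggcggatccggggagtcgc
EGR2: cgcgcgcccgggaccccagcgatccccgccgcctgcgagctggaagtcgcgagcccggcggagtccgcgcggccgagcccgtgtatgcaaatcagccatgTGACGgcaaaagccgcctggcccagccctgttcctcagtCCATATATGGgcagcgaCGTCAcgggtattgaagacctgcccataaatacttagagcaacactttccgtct
FOSB: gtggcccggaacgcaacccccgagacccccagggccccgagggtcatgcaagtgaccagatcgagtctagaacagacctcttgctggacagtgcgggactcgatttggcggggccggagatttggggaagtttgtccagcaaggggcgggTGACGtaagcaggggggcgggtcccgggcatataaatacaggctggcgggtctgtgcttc
JUNB: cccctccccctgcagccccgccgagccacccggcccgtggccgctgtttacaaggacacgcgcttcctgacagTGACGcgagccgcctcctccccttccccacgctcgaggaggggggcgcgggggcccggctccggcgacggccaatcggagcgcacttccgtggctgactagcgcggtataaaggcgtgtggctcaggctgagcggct
JUND: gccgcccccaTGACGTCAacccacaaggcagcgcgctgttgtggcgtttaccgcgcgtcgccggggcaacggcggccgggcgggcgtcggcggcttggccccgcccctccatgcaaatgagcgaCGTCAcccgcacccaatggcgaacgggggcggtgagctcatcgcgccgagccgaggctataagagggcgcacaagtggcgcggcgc

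In windows of 250 bases, the CArG box was present upstream of 3 of the 10 genes, *EGR1*, *EGR2* and *EGR3*, and upstream of 1.05% of the 19524 tested genes with an annotated start. Sequence farther upstream was not searched, so a gene without a match here may still carry one beyond the window. The *EGR1* window held CCATATTAGG at bases -105 to -96 and CCATATATGG at -83 to -74 from the start, and the *EGR2* window held CCATATATGG at -71 to -62. Of the 3 genes that carry it, *EGR1* and *EGR3* were lower in OE and *EGR2* was higher, with the *EGR3* difference not distinguishable from the spread. All 10 windows held the CRE core TGACG on either strand, against 25% of all windows. The *IER2* window precedes ENST00000292433.3, named outside the rule for transcripts, which had 31 counts in 1 library and 0 in the others, and not the transcript that held nearly all *IER2* counts. The *FOS* window precedes ENST00000303562.4, which had 0 counts in both vector control libraries and 28 and 30 in OE. The full CRE TGACGTCA, which contains the core, occurred only in *JUND* among the 10, at -200 to -193, and in 2.25% of all windows. The *JUN* window carried TGACATCA at -67 to -60, found in 1.33% of all windows. No window of the 10 held TGACTCA or TGAGTCA, the letters searched as the AP-1 site (2.71% of all windows), on either strand. None held GCGGGGGCG or GCGTGGGCG, the letters searched as the EGR site (7.97%), on either strand. Variants were not counted as AP-1 or EGR sites, and TGACATCA in *JUN* was searched as a CRE with 1 changed base. TATAAA, searched on both strands, was in 4 windows, those of *FOS*, *FOSB*, *JUNB* and *ATF3*, and in 8.44% of all. A match describes letters in a window and not binding.

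The 10 genes spanned a wide range of expression. Together they took 0.132% and 0.136% of all counts under the empty vector and 0.143% and 0.137% in OE, and *JUN*, *JUNB*, *JUND* and *IER2* held between 94.6% and 97.2% of that. Per kilobase of counted transcript, the vector control means were 232 CPM for *JUNB*, 126 for *JUN*, 110 for *JUND* and 92.2 for *IER2*. After a wide gap came *ATF3* at 10.1 and *EGR1* at 9.74 CPM per kilobase, whose libraries overlapped, then *FOS* at 2.34, *FOSB* at 0.744, *EGR2* at 0.452 and *EGR3* at 0.256. In OE, *EGR2* at 0.903 CPM per kilobase came above *FOSB* at 0.29, the reverse of their control order, with no overlap between their libraries. *ATF3* at 22.4 CPM per kilobase stood above *EGR1* at 4.89, here without overlap. *JUN* at 134 and *JUND* at 132 CPM per kilobase overlapped in OE. The plot of CPM by library shows these levels without division by length.

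**Figure D1:**
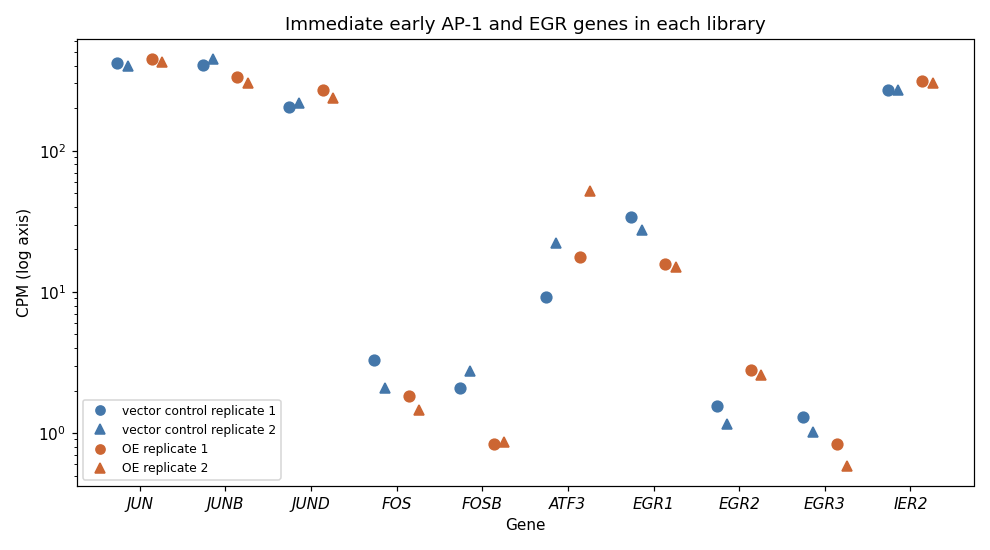
TMM-scaled CPM of each of the 10 genes on a log axis, 1 point per library, blue for vector control and orange for OE, circles for replicate 1 and triangles for replicate 2. *EGR1*, *EGR3*, *FOS*, *FOSB* and *JUNB* have both OE points below both vector control points, *EGR2*, *JUN*, *JUND* and *IER2* have both above, and the *ATF3* points overlap.

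By library, 9 of the 10 genes had groups that did not overlap. Both OE libraries were above both vector control libraries for 4 genes, where 27.8% of all tested genes showed that order, and below them for 5 genes, against 27.6% of all tested genes. By edgeR's quasi-likelihood test, 2 genes were higher (*EGR2* and *IER2*) and 3 were lower (*EGR1*, *FOSB* and *JUNB*) at an unadjusted p under 0.05, beside 10.1% and 10.7% of all tested genes in those directions. None of the 10 passed an adjusted p under 0.01 with an absolute log2 fold change above 0.5, and the percentage of all tested genes that did was 0. The forced *RP5-998N21.4* itself had an adjusted p of 0.0109 by that test, so this threshold could not set the 10 genes apart from the rest. At an adjusted p under 0.05 with the same fold, none of the 10 and 0.594% of all genes passed. DESeq2 at the 0.01 threshold called *EGR1* and *FOSB*, both lower, and none higher, where it called 4.42% of all tested genes lower and 4.35% higher. The median log2 fold change was -0.16 over the 10 genes and 0.01 over all tested genes, with 5 genes above 0 and 5 below.

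**Figure D2:**
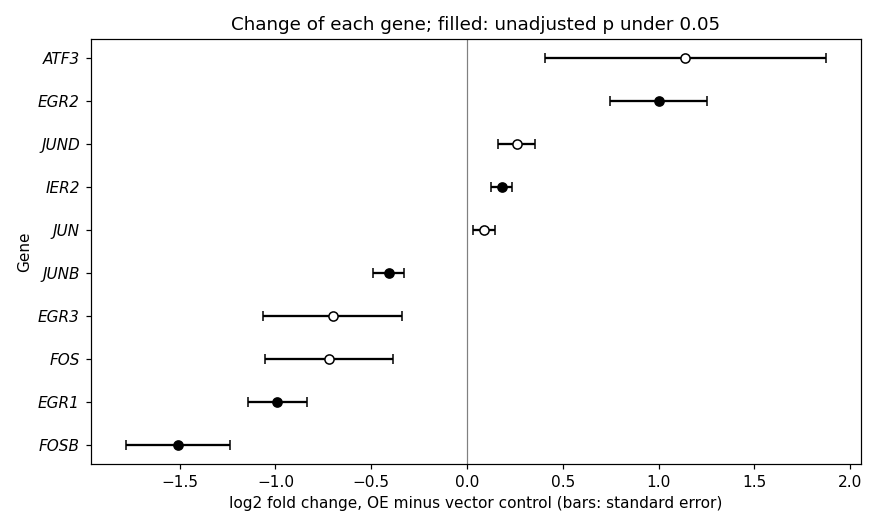
The log2 fold change of each gene in OE against vector control from edgeR, with its standard error as the bar and 2 libraries per group. Filled points have an unadjusted p under 0.05: *EGR2* and *IER2* to the right of 0, *JUNB*, *EGR1* and *FOSB* to the left. *ATF3*, at 1.14, has the widest bar, 0.732.

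Among the EGR genes, *EGR1* was lower and *EGR2* higher in OE. *EGR1* (ENSG00000120738.7, chr5:137801168-137804992, plus strand, 2 exons), which encodes the most abundant EGR factor here, had 786 and 642 counts under the empty vector and 397 and 430 in OE. Both OE libraries were well below both controls and close to each other. In CPM, *EGR1* went from 30.5 ± 4.55 (SD, n = 2) to 15.3 ± 0.676 (SD, n = 2), 0.502-fold. The log2 fold change was -0.99 (SE 0.153, adjusted p 0.0933, quasi-likelihood test of edgeR, Benjamini-Hochberg adjusted), and it ran from -1.14 to -0.84 with 1 library left out at a time. With DESeq2 the adjusted p was 6.84e-07.

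*EGR2* (ENSG00000122877.9, chr10:64571756-64578927, minus strand), known for its part in myelination and hindbrain patterning, had 36 and 27 counts under the empty vector and 70 and 75 in OE. All 4 counts were low, and the OE pair stood above the control pair. In CPM it went from 1.35 ± 0.281 to 2.69 ± 0.139 (SD, n = 2 each), 1.99-fold, with a log2 fold change of 1.00 (SE 0.255, adjusted p 0.164 by edgeR's quasi-likelihood test and 0.0228 by DESeq2, both Benjamini-Hochberg). An exon of *EGR2* overlaps an exon of an unnamed gene on the same strand, and how reads were divided between them is not known. *EGR3* (ENSG00000179388.8, chr8:22545172-22550993, minus strand), an EGR factor with roles in muscle spindles and lymphocytes, had 30 and 24 counts under the empty vector and 21 and 17 in OE. Its mean CPM in OE was the lowest of the 10 genes, and its log2 fold change of -0.70 (SE 0.363, adjusted p 0.372 by the quasi-likelihood test of edgeR, Benjamini-Hochberg adjusted) was not distinguishable from the spread at this depth. It was -0.97 without OE replicate 1 and -0.46 without OE replicate 2.

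The fold changes of *EGR1* and *EGR2* can be put as a ratio within each library, where scaling between libraries plays no part. For each *EGR1* count there were 0.0458 and 0.0421 *EGR2* counts under the empty vector and 0.176 and 0.174 in OE. The libraries of a group lay close together, and the OE mean was 3.99 times that of the control. The smallest two-sided p of an exact permutation test of 2 libraries against 2 is 0.333, so ratios are described without a test.

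Of the FOS genes, which encode AP-1 subunits that depend on a JUN partner, *FOSB* differed most. *FOSB* (ENSG00000125740.9, chr19:45971253-45978437, plus strand) had 49 and 65 counts under the empty vector and 21 and 25 in OE. The OE counts were well under the control counts. In CPM it went from 2.44 ± 0.468 to 0.851 ± 0.0194 (SD, n = 2 each), 0.351-fold. Its log2 fold change of -1.51 (SE 0.273) was the lowest of the 10 genes, with an adjusted p of 0.11 by edgeR's quasi-likelihood test and 0.0011 by DESeq2, both Benjamini-Hochberg. The counts fell on a coding transcript, ENST00000353609.3, with 36 and 54 against 13 and 15, and on a retained-intron transcript, ENST00000586113.1, with 13 and 11 against 8 and 10. Counts of the coding transcript were thus separated by a wide margin, and those of the retained-intron transcript by a narrow one.

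*FOS* (ENSG00000170345.5, chr14:75745529-75748933, plus strand), the founding member of the family, had 77 and 49 counts under the empty vector and 46 and 42 in OE. The lower control library and the higher OE library were only 3 counts apart. Its log2 fold change of -0.72 (SE 0.336, adjusted p 0.333, quasi-likelihood test of edgeR, Benjamini-Hochberg adjusted) ran from -1.01 without vector control replicate 2 to -0.35 without vector control replicate 1. With the highest transcript in place of the sum it was -8.77, a fitted value that is no bound because that transcript is at 0 in OE. The transcripts that carried these counts differed between the groups far more than their sum. The 4-exon coding transcript ENST00000303562.4 (chr14:75745531-75748933) had 0 counts in both vector control libraries and 28 and 30 in OE. The shorter coding transcript ENST00000555686.1 (chr14:75746346-75748387, 3 exons), which starts further downstream, had 62 and 39 counts under the empty vector and 0 in both OE libraries. A 2-exon coding transcript, ENST00000554617.1, had 0 and 0 counts against 10 and 8, and ENST00000556324.2, whose coding sequence is not defined, had 15 and 10 against 8 and 4. These transcripts share exons, so their counts depend on how reads were divided among them, and the cause of the switch was not tested. The bars of counts by transcript show the exchange.

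**Figure D3:**
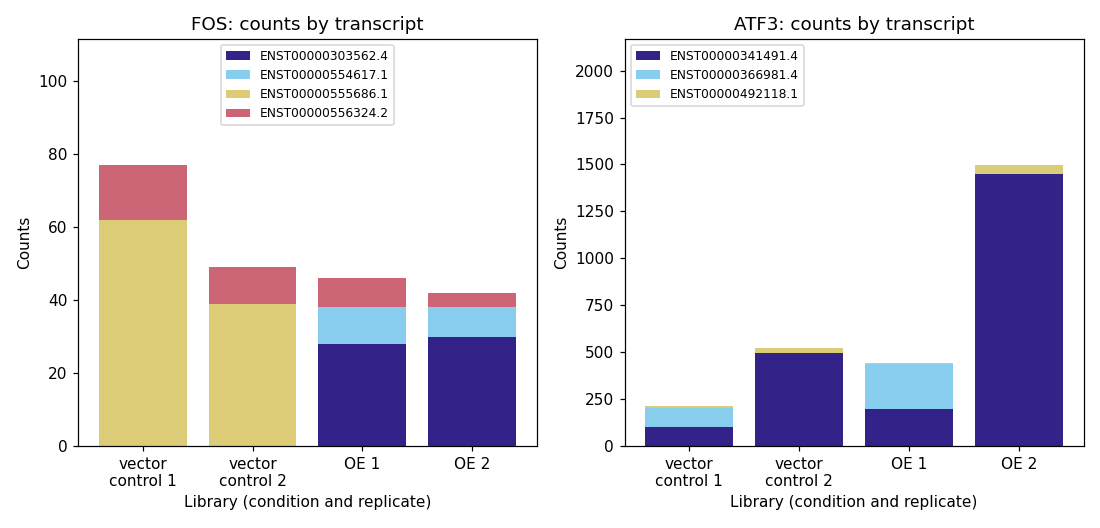
Counts of each transcript of *FOS* (left) and *ATF3* (right), stacked in each of the 4 libraries. For *FOS*, ENST00000555686.1 holds 62 and 39 counts under the empty vector and 0 in OE, and ENST00000303562.4 holds 0 and then 28 and 30. For *ATF3*, ENST00000366981.4 has counts in the replicate 1 libraries and none in the replicate 2 libraries.

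The JUN genes, which encode the subunits that pair with FOS proteins, were abundant, and *JUNB* went against the others. *JUNB* (ENSG00000171223.4, chr19:12902300-12904129, plus strand, 1 exon), often an antagonist of JUN at proliferation genes, had 9480 and 10422 counts under the empty vector and 8387 and 8797 in OE. In CPM it went from 425 ± 25.8 to 319 ± 21.3 (SD, n = 2 each), 0.75-fold, without overlap. The log2 fold change was -0.41 (SE 0.0833, adjusted p 0.122 by edgeR's quasi-likelihood test and 3.58e-05 by DESeq2, both Benjamini-Hochberg), short of the fold threshold in either test. An exon of *HOOK2* on the opposite strand overlaps *JUNB*, and whether counting used strand is not given in the sources used here.

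*JUND* (ENSG00000130522.4, chr19:18390504-18392432, minus strand, 1 exon), the JUN gene with the steadiest expression in most cells, had 4746 and 5150 counts under the empty vector and 6777 and 6877 in OE. In CPM it went from 212 ± 10.9 to 254 ± 22.9 (SD, n = 2 each), 1.2-fold, with both OE libraries above both controls. Its log2 fold change was 0.26 (SE 0.0958, adjusted p 0.25 by the quasi-likelihood test of edgeR, Benjamini-Hochberg adjusted). *JUN* (ENSG00000177606.5, chr1:59242517-59249720, minus strand), the classical AP-1 subunit, had 9795 and 9431 counts against 11191 and 12384, or 411 ± 13.6 against 437 ± 12.6 CPM (SD, n = 2 each). It was nearly level, 1.06-fold, with a log2 fold change of 0.09 (SE 0.0574, adjusted p 0.457 by the same edgeR test).

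The makeup of the JUN family therefore differed inside each library. Counts of *JUNB* per *JUND* count were 2.00 and 2.02 in the vector control and 1.24 and 1.28 in OE, 0.626 times the control. *JUNB* counts per *JUN* count were 0.968 and 1.11 against 0.749 and 0.71, also apart. *JUND* counts per *JUN* count were 0.485 and 0.546 against 0.606 and 0.555, where the nearest libraries almost met. For the FOS genes, *FOSB* counts per *FOS* count were 0.636 and 1.33 against 0.457 and 0.595, and here the control libraries were far from each other.

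**Figure D4:**
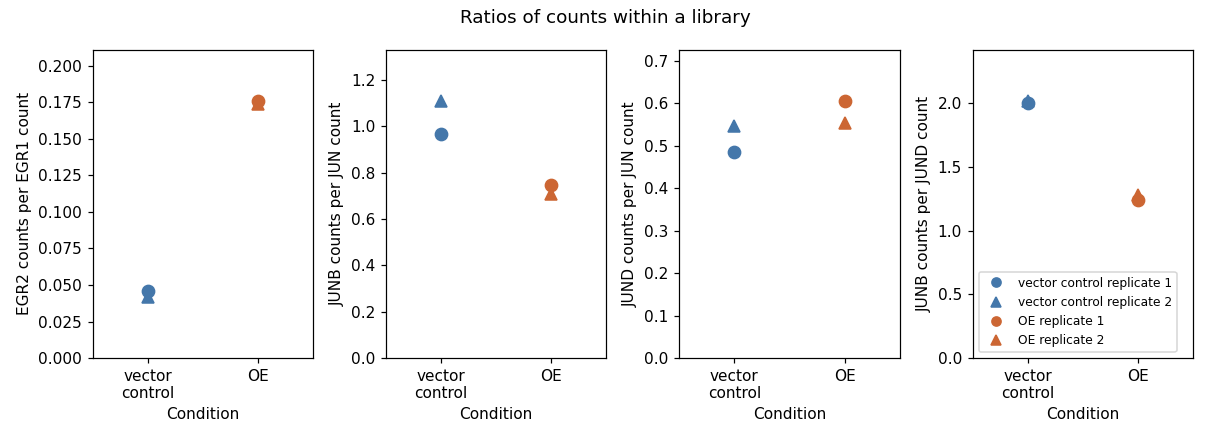
Ratios of counts between pairs of genes within each library, by condition, with 1 point per library on axes that start at 0. *EGR2* per *EGR1* is 0.0458 and 0.0421 in the vector control and 0.176 and 0.174 in OE, and *JUNB* per *JUND* is 2.00 and 2.02 against 1.24 and 1.28.

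*ATF3* (ENSG00000162772.12, chr1:212738676-212794119, plus strand), a stress-induced CREB family repressor that can also pair with JUN proteins, varied more between replicates than between groups in summed counts. It had 214 and 523 counts under the empty vector and 445 and 1496 in OE. The replicate 2 library was the higher of each group, 2.42-fold in CPM in the vector control and 2.92-fold in OE, and the groups overlapped. The means were 15.7 ± 9.24 against 34.7 ± 24.0 CPM (SD, n = 2 each), with a log2 fold change of 1.14 (SE 0.732, adjusted p 0.451, quasi-likelihood test of edgeR, Benjamini-Hochberg adjusted). The log2 fold change was 0.17 without OE replicate 2 and 1.91 without vector control replicate 2. Between libraries of the same number, OE was higher by 0.95 and by 1.22 on the log2 scale. The transcript that starts furthest upstream, ENST00000366981.4, had 101 and 240 counts in the replicate 1 libraries of the vector control and OE and 0 in both replicate 2 libraries. ENST00000341491.4, which starts at position 212782103, had 103 and 495 counts under the empty vector and 199 and 1448 in OE, following the gene. Per kilobase of each counted transcript, *ATF3* was at 8.86 and 11.4 CPM in the vector control and 18.3 and 26.6 CPM in OE, a scale on which the groups did not overlap. ENST00000366981.4 has 680 exon bases and ENST00000341491.4 has 1940, so that separation depends on how reads were divided between them.

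*IER2* (ENSG00000160888.6, chr19:13261225-13265725, plus strand), an immediate early nuclear protein outside the AP-1 and EGR families, had 6269 and 6333 counts under the empty vector and 7817 and 8699 in OE. The difference was small and the replicates were tight, 269 ± 0.211 against 306 ± 7.63 CPM (SD, n = 2 each), 1.14-fold. Its log2 fold change was 0.18 (SE 0.0561, adjusted p 0.203 by edgeR's quasi-likelihood test and 0.000995 by DESeq2, both Benjamini-Hochberg), below the fold threshold. Nearly all its counts, at least 99.3% in each library, fell on the single-exon transcript ENST00000588173.1. Exons of 2 unnamed genes on the opposite strand overlap it.

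The other genes of the pathway were read from lists chosen for their function. Of 15 other AP-1 and ATF subunits 14 were tested, and 3 were higher and 1 was lower at an unadjusted p under 0.05 by edgeR's quasi-likelihood test, beside 10.1% and 10.7% of all tested genes, with a median log2 fold change of 0.15. *JDP2*, a repressor that pairs with JUN proteins and lies 145486 bases beyond the end of *FOS* (chr14:75894419-75940814, plus strand), had 269 and 297 counts under the empty vector and 1984 and 2192 in OE. Both OE libraries were several times above both controls. Its log2 fold change was 2.68 (SE 0.106, adjusted p 0.0231, quasi-likelihood test of edgeR, Benjamini-Hochberg adjusted), 6.4-fold, and over 12 alternatives its adjusted p lay between 7.73e-124 and 0.265. *JDP2* was the only gene of the lists with an adjusted p under 0.05 by edgeR. DESeq2 at its 0.01 threshold called 3 of the 14 subunits higher and none lower, beside 4.35% and 4.42% of all tested genes, and the groups were separated for 8 higher and 1 lower, beside 27.8% and 27.6%.

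Like *FOS*, *JDP2* differed in the transcripts that were counted. ENST00000435893.2 had 94 and 115 counts under the empty vector and 1468 and 2179 in OE. ENST00000559060.1 had 171 and 162 against 0 and 0, and ENST00000267569.5 had 0 and 16 against 510 and 0. ENST00000435893.2 held most of the gene's OE counts, and ENST00000267569.5 was counted in OE in replicate 1 only. ENST00000435893.2 has 5401 exon bases and ENST00000559060.1 has 631, so the fold depends on length. Per kilobase of each counted transcript, a scale applied to *JDP2* after its values were seen, the gene was at 12.7 and 12.5 CPM in the vector control and 23.2 and 14.8 CPM in OE, 1.5-fold in place of 6.4-fold.

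*FOSL2*, a FOS-related subunit and the highest of that list, was at 459 CPM in the vector control and 401 in OE, log2 fold change -0.20. Over 12 alternatives its adjusted p lay between 0.00103 (DESeq2) and 0.947, while its log2 fold change was -0.23 to -0.17 with 1 library left out. The others higher at an unadjusted p under 0.05, named after their values were seen because they average under 10 CPM, were *BATF2* with 37 and 35 against 78 and 85 counts and *BATF3* with 37 and 45 against 89 and 114. *MAFG* and *ATF4*, also singled out after their values were seen, show how far 1 library can carry a value. *MAFG* had 106 and 76 counts against 145 and 15147, and its log2 fold change of 6.09 was 0.57 without OE replicate 2. *ATF4*, an activator of *ATF3* under amino acid stress, had 5673 and 415 counts under the empty vector and 6927 and 630 in OE, so that its CPM differed 13.8-fold between the vector control libraries and 12.7-fold between the OE libraries, in the same order of replicates as each other and opposite to *ATF3*.

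Of the regulators upstream of the 10 genes, few passed a test. Of 10 serum response factors and partners all were tested, none was higher and 1, *ELK3*, a ternary complex factor, was lower at an unadjusted p under 0.05 (277 against 218 CPM, log2 fold change -0.35, adjusted p 0.122, quasi-likelihood test of edgeR, Benjamini-Hochberg adjusted). Over all tested genes, 10.1% were higher and 10.7% lower at that p. The list's log2 fold changes ran from -0.35 to 1.29 with a median of -0.05, and *ELK4*, its most abundant gene, was at -0.03. The highest, *MKL2*, an SRF coactivator named after its values were seen, was at 9.23 and 9.96 CPM in the vector control and 39.9 and 7.05 CPM in OE, high in 1 OE library only. Of 15 MAP kinases of the pathway none had an unadjusted p under 0.05 by edgeR's quasi-likelihood test and none was called by DESeq2 at its 0.01 threshold (shares of all tested genes 10.1% and 10.7%, and 4.35% and 4.42%). Their log2 fold changes ran from -1.02 to 0.28 with a median of -0.04, and the lowest rests on vector control replicate 1, without which it was -0.25. The groups were separated for 6 kinases lower and 2 higher in OE, beside 27.6% and 27.8% of all tested genes. Of 4 EGR family and corepressor genes only *NAB1* and *NAB2* were tested, with a median of 0.13 that ran from 0.02 to 0.27 with 1 library left out at a time. *NAB2*, itself an EGR target, was at 62.1 ± 10.6 against 82.8 ± 19.6 CPM (SD, n = 2 each), with overlapping groups.

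Of 33 other immediate early genes listed, 31 were tested, and 11 were higher and 4 lower at an unadjusted p under 0.05 by edgeR's quasi-likelihood test, beside 10.1% and 10.7% of all tested genes, with a median log2 fold change of 0.17. Among the higher were the Krüppel-like factors *KLF10* (log2 fold change 1.41), *KLF6* (1.00) and *KLF4* (0.96). *KLF10* had 1693 and 3772 counts under the empty vector and 7776 and 8965 in OE, with control libraries well apart. Among the lower were *CTGF* (-0.45) and *CYR61* (-0.28), which encode matricellular proteins, and *ID1* (-0.36), an inhibitor of bHLH factors. None of the 31 had an adjusted p under 0.05 by the quasi-likelihood test of edgeR, Benjamini-Hochberg adjusted, where the smallest was 0.0629, while DESeq2 at its 0.01 threshold called 5 higher and none lower, beside 4.35% and 4.42% of all tested genes.

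Of 20 known AP-1 and EGR target genes all were tested, and 3 were higher and 6 lower at an unadjusted p under 0.05 by edgeR's quasi-likelihood test, beside 10.1% and 10.7% of all tested genes, with a median log2 fold change of -0.17. *CD44*, an adhesion receptor that is also on the mesenchymal marker list, had 14266 and 13264 counts under the empty vector and 8894 and 10559 in OE, log2 fold change -0.71 (adjusted p 0.0615, quasi-likelihood test of edgeR, Benjamini-Hochberg adjusted). *CCND1*, the gene of cyclin D1, had a log2 fold change of -0.43 and the collagenase gene *MMP1* of -0.34, both with separated groups. In the other direction stood *GDF15* (1.44), a stress-induced cytokine, *HMOX1* (1.25), which encodes heme oxygenase, and *PDGFA* (0.33). Over 12 alternatives the adjusted p of *GDF15* lay between 9.61e-17 (DESeq2) and 0.887, while its log2 fold change was 1.31 to 1.57 with 1 library left out. No target passed an adjusted p under 0.05 by edgeR, and DESeq2 at its 0.01 threshold called 2 higher and 1 lower, beside 4.35% and 4.42% of all tested genes.

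**Figure D5:**
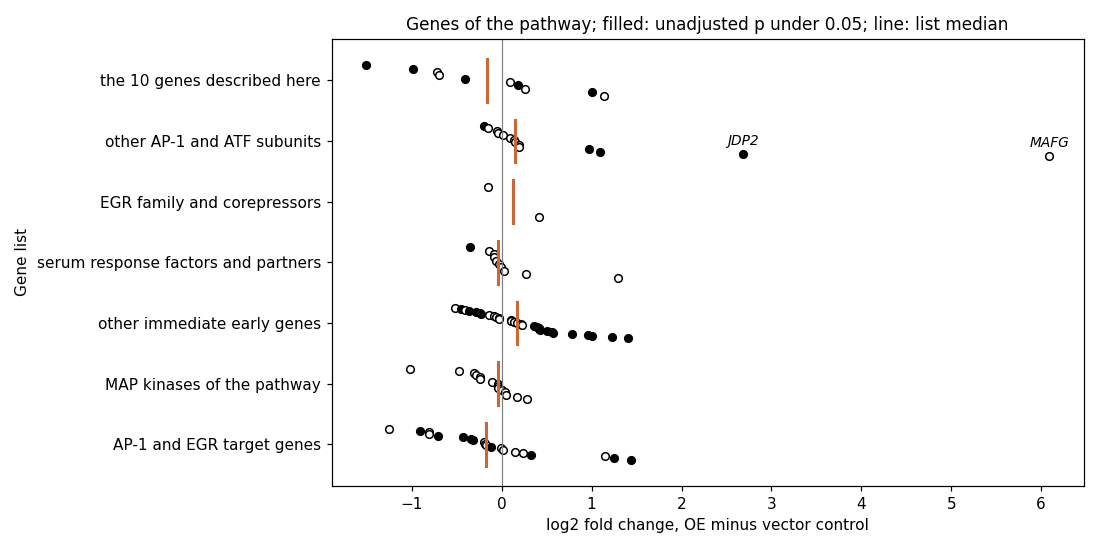
The log2 fold change in OE against vector control of each tested gene, by list, with the list median as an orange line and filled points for an unadjusted p under 0.05. The medians lie between -0.17 and 0.17, *JDP2* stands at 2.68 in summed counts, and the point at 6.09 is *MAFG*, which is high in 1 library.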

How the data were processed

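RNA from 4 SK-N-SH libraries, 2 transduced with the empty lentivirus and 2 with the *RP5-998N21.4* lentivirus, was sequenced for the study on an Illumina HiSeq instrument. According to the study's methods, reads were checked with FastQC, trimmed with Trimmomatic and mapped to hg19 with Bowtie2. The submitters' processing notes name Bowtie2 2.0.4, Picard 2.21.6, StringTie 2.1.6 and DESeq2. The program that counted reads, its annotation release and its use of strand are not given in the sources used here. The authors deposited whole-number counts per transcript, 196520 transcripts for each library, with no normalization. Whole counts on transcripts that share exons depend on how reads were divided between them.

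Transcript counts were added up by gene identifier (57820 genes). Genes were kept by filterByExpr (20528), scaled by TMM and tested by edgeR 4.0.16 (quasi-likelihood, R 4.3.3), with Benjamini-Hochberg adjustment over all tested genes. The common dispersion was 0.122 and there were 2 residual degrees of freedom. The thresholds, an adjusted p of 0.01 and an absolute log2 fold change of 0.5, follow the study. CPM per kilobase divides each transcript's CPM by its exon length before summing. Positions came from the GENCODE annotation of GRCh37, which matched 96.89% of tested genes, and upstream sequence from the same genome build. The test script was checked on simulated data.

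The 10 genes, the pathway lists and the marker lists (adrenergic neuroblastoma, mesenchymal neuroblastoma, other cell types) were chosen with earlier results of these data known. All 10 genes are named. From each pathway list the text names up to 3 higher and 3 lower genes of the largest change that had an unadjusted p under 0.05 and a mean of at least 10 CPM, and the most abundant gene. Named transcripts hold at least 10% of the gene's counts in some library. Genes named outside this rule are marked as such, and the most abundant gene of 2 lists is not reported here. Alternatives were RLE and upper-quartile scaling, DESeq2 1.42.0, limma-voom 3.58.1, a minimum of 1 count in total or a mean of at least 10 counts, the replicate number as a block, the highest transcript in place of the sum, and each library left out in turn. Library totals were 23785164 to 28307591 counts, and whether duplicate reads were removed is not given in the sources used here.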

Additional observations from a re-analysis of the deposited data

How the results depend on the processing

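All 10 genes kept the direction of their log2 fold change in all 12 alternatives (*FOS* moved to -8.77 with its highest transcript alone, which is at 0 in OE), and *EGR1* and *FOSB* alone passed both the adjusted p of 0.01 and the log2 fold change of 0.5 in any, with DESeq2, which called 2 of the 10 where edgeR called 0. DESeq2 called 1800 of all tested genes, a minimum of 1 count in total 9, the highest transcript 1 and the other alternatives 0. The number of genes higher at an unadjusted p under 0.05 was 2. It was 3 with upper-quartile scaling, DESeq2 and a minimum of 1 count in total, and 0 to 1 with 1 library left out: 0 without vector control replicate 2 or OE replicate 1, and 1 without vector control replicate 1 or OE replicate 2. The number lower was 3 in each of those fits and 4 with the highest transcript.

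The median log2 fold change of the 10 genes was -0.12 with upper-quartile scaling and -0.21 to -0.12 with 1 library left out. Upper-quartile scaling moved the medians to 0.18 for the other AP-1 and ATF subunits, 0.21 for other immediate early genes, -0.00 for MAP kinases and -0.13 for target genes, while the median of all tested genes went from 0.00708 to 0.0463. With the highest transcript alone, the subunits were at 0.22 and the other immediate early genes at 0.10, and the latter were at 0.14 with limma-voom and 0.20 with a minimum of 1 count. With 1 library left out, the ranges were 0.07 to 0.18 for the subunits, -0.10 to 0.01 for serum response factors, 0.02 to 0.27 for the EGR family and corepressors, 0.13 to 0.23 for other immediate early genes, -0.16 to -0.07 for MAP kinases and -0.18 to -0.11 for target genes. The cause of the shifts other than under upper-quartile scaling was not tested.

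The replicate numbers name libraries without tying them to a shared culture or day. Over the tested genes, deviations of same-numbered libraries from their group means correlated at -0.0133. Single genes picked after their values were seen did recur by number. *ATF3* and *CREB1* were higher in replicate 2 of both groups, *CREB1* by 5.84-fold in the vector control and 7.1-fold in OE, and *ATF4* was higher in replicate 1 of both. Whether same-numbered libraries share more than a number was not tested. With the number as a block, the median of other immediate early genes was 0.13, and the counts of genes stayed at 2 higher, 3 lower and 0 called. *ATF3* had a log2 fold change of 1.08 in that fit, with an adjusted p of 0.296 by edgeR's quasi-likelihood test.

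With 1 library left out, the log2 fold change of *JUN* ran from 0.05 to 0.12 and that of *JUND* from 0.17 without OE replicate 1 to 0.35 without OE replicate 2. The counts of *EGR2*, *EGR3*, *FOS* and *FOSB*, between 17 and 77 in each library, limit the precision of these genes, and 2 libraries per group limit all of them.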
